A study of Homo sapiens with 15 samples.

Results

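Collagens are the main structural proteins of the extracellular matrix. Each chain carries long stretches in which glycine recurs at a fixed interval, and chains wind around each other in a triple helix. Fibrillar types form the fibrils of connective tissue, type IV forms the network of basement membranes, and the other types decorate fibrils, build microfibrils or short-chain networks, or span the plasma membrane. Carcinoma cells of a mesenchymal kind can make part of their own matrix, and collagen genes are often followed as readouts of that state.

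The collagen chain genes were taken as all genes whose name on the array, or current symbol, is COL, a number, A and a number. The rule found 42 genes with 68 probes, out of 30992 genes or names with 41000 probes. Of these, 11 encode fibrillar chains, 8 encode basement membrane chains (the 6 chains of type IV with COL15A1 and COL18A1) and 23 encode other chains. RefSeq lists 44 genes by the same pattern, and COL6A6 and COL28A1 had no probe under that name. COL26A1 and COL6A5 are listed on the array under the older names EMID2 and FLJ35880.

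The arrays measured MDA-MB-231 cells, a tumorigenic triple-negative breast cancer line with a mesenchymal form, in which the transcriptional corepressor CtBP2 was lowered or CtBP was inhibited. The shCtBP2 group (5 arrays) held cells with stable RNA interference of CtBP2, the HIPP group (5 arrays) cells given HIPP for 24 h, and the P4 group (5 arrays) cells given P4 for 24 h. HIPP and P4 are inhibitors of CtBP on the same phenylpropanoate backbone, HIPP with a hydroxyimino group and P4 with a hydrazone group. On every array the treated cells were labelled with Cy5 and untreated cells of the same line with Cy3. No array had the dyes swapped, so a ratio against 0 can hold a dye effect of the gene. The labels call the control of every array untreated, whereas the methods set shCtBP2 cells against cells with a scrambled sequence. Whether the knockdown line is 1 clone is not given in the sources used here.

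The comparison asks which collagen genes changed when CtBP2 was silenced or CtBP was inhibited. All values below are log2 ratios of treated over control signal unless stated otherwise, so positive values are higher and negative values lower in treated cells. A gene was called when limma's Benjamini-Hochberg adjusted p over all genes tested was under 0.05 and the linear fold change was at least 1.5 for shCtBP2, 2.5 for HIPP or 1.8 for P4, the thresholds of the methods. The replicates are labelled as biological, and their number limits the precision. Signal in a bulk culture cannot tell fewer expressing cells from less RNA per cell.

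Array quality and identity were checked first. The control channel was well above background for 64.9 to 81.0% of gene spots, depending on the array, and 0 spots were saturated. Of the 7 markers of a mesenchymal breast line, 6 (VIM, CD44, ZEB1, KRT18, KRT8 and EGFR) were above background in the control channel on all 15 arrays and CDH2 on none. The luminal markers CDH1 and PGR were above background on none, but EPCAM and GATA3 were on all 15. Of 6 fibroblast markers THY1, ACTA2 and DPT were above background on all 15 arrays and FAP on none; PECAM1 (endothelial) and CD14 (leukocyte) were also above background on all 15. Some markers moved with the treatments: with HIPP CD44 (1.40) and ZEB1 (1.05) were higher and PECAM1 (−1.95) lower on 5 of 5 arrays, and with P4 ZEB1 (−0.71) and PECAM1 (−0.74) were lower on 5 of 5, all with a limma adjusted p under 0.05. CD44 (0.45) and EGFR (0.41) also passed higher with P4, and the fibroblast and endothelial markers that passed are given beside the results they moved with. The part of other cell types in the results was not tested. CTBP2 itself had log2 ratios of −0.36, −0.35, −0.59, −0.44 and −0.29 on shCtBP2 replicates 1 to 5, lower on 5 of 5 arrays, and did not pass the threshold (limma adjusted p = 0.0602). On the HIPP arrays CTBP2 was higher on 5 of 5 (0.57 ± 0.36, limma adjusted p = 0.0026), below the fold change asked, and on the P4 arrays it had 0.17 ± 0.35 (SD over 5 arrays each, limma adjusted p = 0.345). The arrays lay on 4 slides: P4 replicates 1 to 4 on slide 1, which was scanned on another day, P4 replicate 5 with HIPP replicates 1 to 3 on slide 2, HIPP replicates 4 and 5 with shCtBP2 replicates 1 and 2 on slide 3, and shCtBP2 replicates 3 to 5 on slide 4.

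The glycine repeat can be read directly in 3 of the 60-base probes, shown here because they lie inside the coding sequence of the helix and measure the same genes as probes placed elsewhere. Capitals mark the glycine codons, 6 in each probe, and positions of probes, here and below, are those of the array's annotation (hg17). Of these genes COL3A1 was above background on no array.
COL3A1, chr2:189694582-189695626, plus strand: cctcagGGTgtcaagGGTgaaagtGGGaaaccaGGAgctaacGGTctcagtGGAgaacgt
COL4A1, chr13:109624341-109624847, minus strand: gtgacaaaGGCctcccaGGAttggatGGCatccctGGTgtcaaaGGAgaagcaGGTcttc
COL4A5, chrX:107675633-107675692, plus strand: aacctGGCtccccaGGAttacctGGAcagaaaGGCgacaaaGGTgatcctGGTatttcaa
The span of the COL3A1 and COL4A1 probes on the genome is longer than the probe itself, as for a probe that crosses an intron.

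Type IV genes lie head to head in pairs, and the stretch between the starts of COL4A1 and COL4A2 is shown because both genes were measured above background on all arrays. In RefSeq (GRCh38.p14) it runs over chr13:110307158-110307283, 126 bases with a GC content of 80.2%, and is given on the plus strand, along which COL4A2 is read.
COL4A1 and COL4A2: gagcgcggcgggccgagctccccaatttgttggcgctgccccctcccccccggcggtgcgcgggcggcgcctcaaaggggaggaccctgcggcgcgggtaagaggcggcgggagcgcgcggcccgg
The letters CAGGTG, an E-box that ZEB1, a partner of CtBP, can bind, are on neither strand of this stretch. ZEB1 itself had log2 ratios of −0.07 ± 0.25 in shCtBP2 cells, 1.05 ± 0.33 under HIPP and −0.71 ± 0.29 under P4 (SD over 5 arrays each). Windows from 250 bases before to 50 bases after the start were at hand for 30 of the 42 collagen genes (42 windows). The E-box was in 5 windows, those of COL16A1, COL4A3, COL4A4, COL8A2 and COL9A2, a share of 11.9% against 20.6% of 35116 windows of all genes. The site of COL16A1, the collagen gene called higher in shCtBP2 cells, is shown with the E-box in capitals. It lies at −221 from the start of the gene, in chr1:31704206-31704265, minus strand, where the letters read as the reverse complement. COL4A3 and COL4A4, the starts of which lie 418 bases apart, share 1 site.
COL16A1: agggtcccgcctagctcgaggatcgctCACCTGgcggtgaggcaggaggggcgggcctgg
COL4A3: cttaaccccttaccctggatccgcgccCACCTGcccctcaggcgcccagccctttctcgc
The latter runs over chr2:227164383-227164442, plus strand. A match of letters is a description and not a binding site.

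MDA-MB-231 cells showed signal for a part of the collagen genes. In the control channel, 22 of the 42 collagen genes (52.4%) were well above background on all 15 arrays, 15 on some and 5 on none, against 60.3% on all 15 arrays over all genes. A gene was counted as above background on an array where at least 1 of its probes was, without spots marked as outliers or non-uniform. Counts given for single probes keep those spots. Of the fibrillar genes, 4 of 11 were above background throughout: COL5A1 and COL5A2, chains of type V that help to start fibrils, COL11A2, a cartilage chain, and COL27A1. The classic fibril genes were weak. COL1A1 was above background in the control channel on 9 arrays, COL1A2 on 3 and COL2A1 on 1. COL3A1 and COL11A1 were above background in neither channel on any array, as were COL8A2, COL19A1 and COL22A1 among the other types. Of the basement membrane genes, COL4A1, COL4A2, COL15A1 and COL18A1 were above background throughout and COL4A5 on 14 arrays, whereas COL4A3 and COL4A4 were above it on 2 arrays and COL4A6 on 1. Of the other types, 14 of 23 were above background throughout, among them the microfibril chains COL6A1, COL6A2 and COL6A3 and the transmembrane collagens COL13A1 and COL17A1.

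In shCtBP2 cells, 4 collagen genes were called: COL5A1, COL4A5 and COL6A1 fell and COL16A1 rose. They were 4 of 41 tested (9.76%), against 6.55% of all 27582 genes tested. At any fold change 6 passed, 1 higher and 5 lower, with COL18A1 and COL6A2 the further ones (13.4% of all genes tested passed, 6.52% higher and 6.87% lower). The median log2 ratio of the 41 collagen genes was −0.01, against 0.04 over all genes tested. COL12A1 (−0.00 ± 0.21, SD, n = 5) was removed by the filter on low spread.

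COL5A1 had log2 ratios of −0.79, −1.05, −1.22, −0.89 and −0.56 on shCtBP2 replicates 1 to 5. All arrays were low, with a mean of −0.90 ± 0.25 (SD, n = 5, limma adjusted p = 6.17e-05), 53.6% of the control signal. The probes of COL5A1 (chr9:134960497-134960556 and chr9:134960008-134960067) gave means of −0.61 and −1.19. COL5A2, its partner chain, had values of −0.79, −0.99, 0.16, −0.28 and −0.26 and did not pass the threshold (−0.43 ± 0.46, SD, n = 5, limma adjusted p = 0.111). Of its 3 probes, those above background, A_23_P10391 and A_23_P33196, were lower on 5 of 5 arrays (−0.52 ± 0.37 and −0.61 ± 0.39), and A_32_P218734, above background in neither channel, had −0.16 ± 1.11 (SD over 5 arrays each). With slide as a fixed block COL5A2 was called at −0.92 (limma adjusted p = 0.0478). That value is set at the mean of 4 slides, of which slides 1 and 2 held no shCtBP2 array. On slides 3 and 4 COL5A2 had means of −0.89 and −0.13.

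COL6A1, a chain of the beaded microfibrils that surround cells, had log2 ratios of −0.85, −0.96, −0.69, −0.63 and −0.48 with shCtBP2, a mean of −0.72 ± 0.19 (SD, n = 5, limma adjusted p = 0.00599). All 5 arrays were below the control. With HIPP (−0.47 ± 0.47, limma adjusted p = 0.0182) and P4 (−0.58 ± 0.30, SD, n = 5 each, limma adjusted p = 0.00954) it passed the adjusted threshold below the fold changes asked. The P4 value was carried by probe A_24_P331918 (−0.90 ± 0.41, with a treated signal above background on 2 of 5 arrays), while A_32_P32254, above background on all arrays, had −0.25 ± 0.47 and was lower on 3 of 5 (SD over 5 arrays each). COL6A2, which pairs with it in the type VI monomer, had −0.63, −0.63, −0.42, −0.47 and −0.17. Its mean of −0.46 ± 0.19 (SD, n = 5, limma adjusted p = 0.0248) passed the adjusted threshold but was under the fold-change threshold. COL6A3, the third chain of the monomer, lay between −0.14 and 0.09 on the 5 arrays (mean 0.01 ± 0.10, SD, limma adjusted p = 0.964). One of its 2 probes had no signal above background on any array, and the other, A_23_P131614, had a mean of −0.11 with shCtBP2. With HIPP (0.31) and P4 (0.45) COL6A3 passed the adjusted threshold higher, where COL6A1 was lower, below the fold changes asked. A_23_P131614 had 0.16 ± 0.19 and 0.46 ± 0.28 (SD over 5 arrays each), higher on 4 and 5 of 5 arrays, and the probe at background 0.47 and 0.45. COL6A5, another chain of type VI, was above 0 on 5 of 5 shCtBP2 arrays (0.49 ± 0.41, limma adjusted p = 0.145), with a control signal above background on none of them.

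COL16A1, a fibril-associated collagen (chr1:31787268-31787327), had log2 ratios of 0.84, 0.98, 0.55, 0.53 and 0.89 with shCtBP2. Its mean was 0.76 ± 0.20 (SD, n = 5, limma adjusted p = 0.00183), 169% of the control. It was also above the control with HIPP (mean 0.48 ± 0.31, above 0 on 5 of 5 arrays, limma adjusted p = 0.00743) and P4 (mean 0.54 ± 0.35, above 0 on 4 of 5 arrays, limma adjusted p = 0.00653; SD, n = 5 each). Both passed the adjusted threshold and neither reached the fold change asked for those treatments.

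COL4A5, a type IV chain, had log2 ratios of −1.12, −1.30, −0.69, −0.82 and −0.58 with shCtBP2, a mean of −0.90 ± 0.30 (SD, n = 5, limma adjusted p = 0.000561). The 3 probes of the gene did not move alike. The probe at chrX:107746725-107746784 had a mean of −2.45 ± 0.56 (SD, n = 5), but the control channel was above background on 4 of the 5 arrays and the treated channel on 0. On signals after normexp correction, loess and quantile normalization of the intensities, that is at least 1.13-fold lower. The probe in the glycine repeat printed above had a mean of −0.27 ± 0.54, and the remaining probe, above background in neither channel on any shCtBP2 array, 0.01 ± 0.53. With the brightest probe of each gene in place of the mean, COL4A5 was no longer called (−0.27, limma adjusted p = 0.273). With HIPP COL4A5 passed the adjusted threshold lower too, at a mean of −0.42 and below the fold change asked, and with P4 it had −0.12. The probe at chrX:107746725-107746784 had −1.23 ± 0.45 with HIPP, lower on 5 of 5 arrays, with a treated signal above background on 0. The other probes had −0.26 ± 0.17 and 0.24 ± 0.80 with HIPP (SD over 5 arrays each).

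After normexp correction and loess normalization, changed together, 0 collagen genes were called by limma, though 5 of 35 tested had an adjusted p under 0.05 and 9 an unadjusted one. The share of all genes that passed in that setting is not given here, so these counts are not read as a result about collagen genes. Of the 4 genes named, COL5A1 (−0.31), COL6A1 (−0.37) and COL16A1 (0.39) were among the 5. COL4A5 had −0.06 there (limma adjusted p = 0.258). COL6A1 had −0.54 by its brightest probe (limma adjusted p = 0.0597) and was not called by it.

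**Figure D1:**
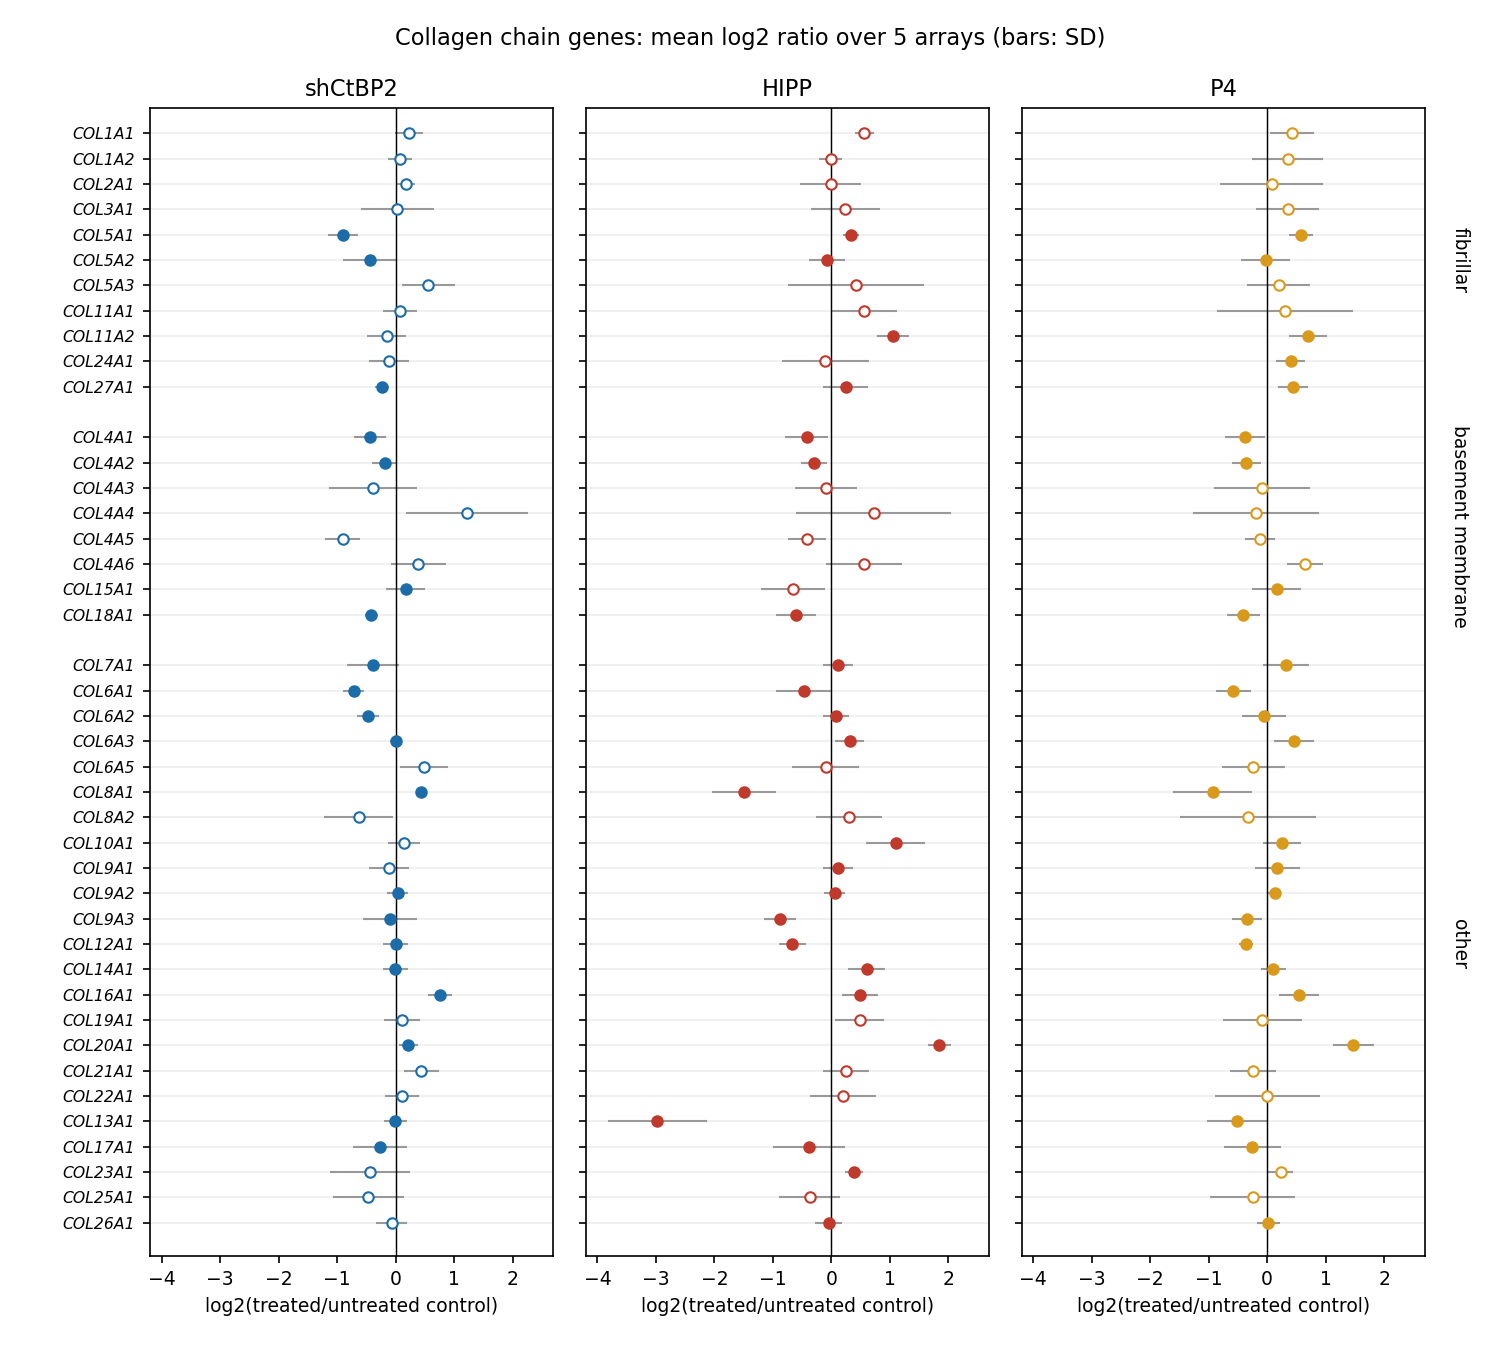
Mean log2 ratio of treated over control signal (x axis) of the 42 collagen genes (y axis, grouped in fibrillar, basement membrane and other types) with shCtBP2, HIPP and P4, over 5 arrays each, with the SD as a bar. Filled points are genes well above background in both channels on all 5 arrays and open points are the rest; COL13A1 with HIPP lies lowest of all points, at −2.98, and many of the wide bars belong to open points such as COL4A4.

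With HIPP, 3 collagen genes were called: COL13A1 and COL8A1 fell and COL20A1 rose. They were 3 of 36 tested (8.33%), against 7.05% of all genes tested. At any fold change 17 of the 36 passed (47.2%), 9 higher and 8 lower, against 48.7% of all genes tested (24.8% higher and 23.9% lower). The median of the 36 was 0.18, against 0.08 over all genes tested. COL4A1, COL4A2, COL5A2, COL6A2, COL22A1 and COL26A1 were removed by the filter on low spread.

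COL13A1, a transmembrane collagen found at cell adhesion sites, had the largest mean change of the collagen genes with HIPP. Its log2 ratios with HIPP were −3.66, −3.07, −3.40, −1.52 and −3.23. All 5 arrays were far below the control, replicate 4 the least, and the mean was −2.98 ± 0.84 (SD, n = 5, limma adjusted p = 1.97e-07), 12.7% of the control signal. Both probes were well above background in both channels on all arrays: A_23_P1331 (chr10:71388817-71388876) had a mean of −3.28 ± 0.85 and A_24_P90005 (chr10:71388613-71388672) one of −2.68 ± 0.84 (SD, n = 5). Without replicate 4 the mean was −3.34. The call held in every setting tried, normexp correction and loess included, with values from −3.34 to −2.68.

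With P4, COL13A1 had log2 ratios of 0.28, −1.09, −0.83, −0.40 and −0.54. The mean of −0.52 ± 0.52 (SD, n = 5, limma adjusted p = 0.112) did not pass the threshold. With shCtBP2 the gene lay between −0.20 and 0.23 on the 5 arrays, around the control (mean −0.01 ± 0.19, SD). The shCtBP2 arrays and the HIPP arrays did not overlap.

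COL8A1, a short-chain collagen of endothelial matrices and vessel walls (chr3:100997455-100997514), had log2 ratios of −1.80, −1.50, −1.92, −0.56 and −1.69 with HIPP. Replicate 4 was again the least changed, and the mean was −1.50 ± 0.55 (SD, n = 5, limma adjusted p = 3.99e-05), 35.5% of the control. Without replicate 4 the mean was −1.73. With P4 the values were 0.18, −1.56, −1.37, −0.88 and −1.0, so that 4 of 5 arrays were below the control and replicate 1 was above it. The mean of −0.93 ± 0.68 (SD, n = 5, limma adjusted p = 0.00432) was called, and without replicate 1 it was −1.20. With shCtBP2 the gene was at 0.40, 0.42, 0.36, 0.40 and 0.58, above the control on all arrays but not past the threshold (limma adjusted p = 0.197). Of the 4 endothelial markers PECAM1 moved with COL8A1, at −1.95 ± 0.26 under HIPP and −0.74 ± 0.40 under P4 (SD over 5 arrays each), while TEK was above background on no array. VWF passed in neither treatment in which it was tested. CDH5, near background, had 1.18 in shCtBP2 cells, 0.22 under HIPP and 0.85 under P4 (limma adjusted p = 0.021, 0.584 and 0.0498). The summed signal of the 4 was 107.9 to 191.0 in control and 54.5 to 93.2 in treated cells on the HIPP arrays, and 81.8 to 149.6 and 64.1 to 116.8 on the P4 arrays. COL13A1 and COL8A1 ranked the 5 P4 arrays in the same order, with replicate 1 highest and replicate 2 lowest. P4 replicate 1 also had the lowest median log2 ratio of all arrays, −0.11; the part of that array in these values was not tested beyond leaving it out.

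COL20A1, a fibril-associated collagen, rose with both inhibitors as the mean of its probes. Its log2 ratios were 1.64, 2.07, 1.71, 1.76 and 2.04 with HIPP, all high (mean 1.85 ± 0.20, SD, n = 5, limma adjusted p = 2.42e-08). With P4 they were 1.88, 1.75, 1.00, 1.41 and 1.34 (mean 1.47 ± 0.35, SD, n = 5, limma adjusted p = 1.04e-06), and with shCtBP2 between 0.02 and 0.45 (mean 0.22 ± 0.16, SD, limma adjusted p = 0.252). The 2 probes disagreed. A_32_P185637 (chr20:61431613-61431671) had a mean of 3.47 ± 0.39 with HIPP and 2.52 ± 0.64 with P4, whereas A_32_P867789 (chr20:61435796-61435855) had 0.22 ± 0.23 and 0.42 ± 0.37 (SD, n = 5). In shCtBP2 cells they had opposite signs, 0.70 ± 0.26 and −0.27 ± 0.31, each on 5 of 5 arrays (SD). The latter has the higher mean log2 signal over both channels of all arrays, although the former was the brighter in HIPP-treated and P4-treated cells, and with it alone the gene was called with neither inhibitor (limma adjusted p = 0.198 with HIPP and 0.0294 with P4). Which of the probes follows the transcripts of COL20A1 was not tested. After normexp correction and loess the mean of both probes was 0.91 with HIPP (limma adjusted p = 7.69e-05) and 0.60 with P4 (limma adjusted p = 0.00291), under both fold-change thresholds.

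**Figure D2:**
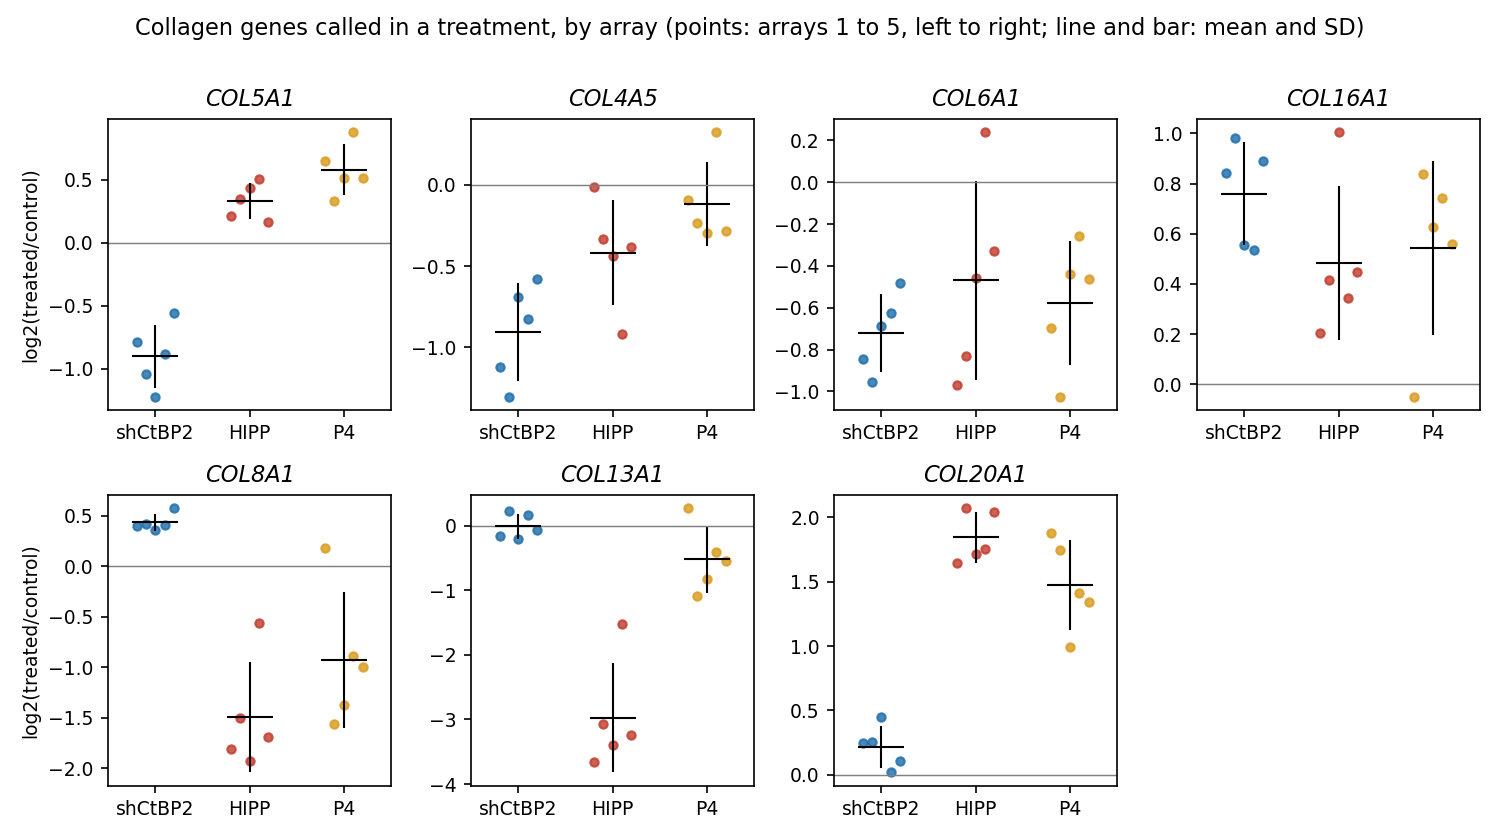
Log2 ratio of treated over control signal (y axis, with its own scale for each gene) on each array of the 7 collagen genes called in at least 1 treatment. Points are replicates 1 to 5 from left to right, and the line and bar are the mean and SD; HIPP replicate 4 and P4 replicate 1 stand nearest to or above the control line for COL8A1 and COL13A1, and COL5A1 has all 5 shCtBP2 arrays below 0 and all HIPP and P4 arrays above it.

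Several chains passed the adjusted threshold with HIPP below the 2.5-fold threshold. COL10A1, the short-chain collagen of the growth plate, had 0.78, 1.39, 0.79, 0.69 and 1.84 (mean 1.10 ± 0.50, SD, n = 5, limma adjusted p = 6.66e-05). COL11A2, the cartilage fibril chain (chr6:33238634-33238694), had 1.02, 1.11, 0.75, 0.92 and 1.49 (mean 1.06 ± 0.27, SD, n = 5, limma adjusted p = 1.97e-05). COL9A3, a chain of the type that coats cartilage fibrils, was low on all arrays, with −1.20, −0.85, −1.12, −0.59 and −0.63 (mean −0.88 ± 0.28, SD, n = 5, limma adjusted p = 0.000236). On all 5 arrays COL10A1 and COL11A2 were above the control and COL9A3 below it.

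Of the fibril-associated chains, COL12A1 had log2 ratios between −0.99 and −0.34 with HIPP (mean −0.67 ± 0.23, SD, n = 5, limma adjusted p = 6.29e-05). Here too the probes differed: A_23_P214168 had a mean of −1.39 ± 0.23 and A_24_P291814 one of 0.06 ± 0.26 (SD, n = 5), both above background on all arrays. By its brighter probe, the former, COL12A1 was called with HIPP (limma adjusted p = 8.71e-07). COL14A1, another fibril-associated chain, had values from 0.10 to 0.84 (mean 0.61 ± 0.32, SD, n = 5, limma adjusted p = 0.000676), of which the probe above background on all arrays in every group, A_24_P222591, had 1.20 ± 0.56. A second probe above background in both channels on all HIPP arrays, A_32_P80850, had 0.25 ± 0.39 (SD over 5 arrays each).

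With a fold change of 1.5 for every treatment, 10 of 36 collagen genes were called with HIPP, against 32.6% of all genes tested: the 3 above with COL10A1, COL11A2, COL12A1, COL14A1, COL15A1, COL18A1 and COL9A3. COL15A1 and COL18A1, the multiplexins of basement membrane zones, were both lower. COL15A1 had 0.24, −0.98, −1.14, −0.83 and −0.57 (mean −0.65 ± 0.54, SD, n = 5, limma adjusted p = 0.01), and its treated signal was above background on 1 of the 5 HIPP arrays, against 5 of 5 for the control. After normexp correction and loess, COL13A1 alone was called with HIPP; COL8A1 had −0.86 there (limma adjusted p = 0.00174).

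With P4, 2 collagen genes were called, COL20A1 higher and COL8A1 lower, of 40 tested (5.00%), against 8.46% of all genes tested. At any fold change 12 of the 40 passed, 8 higher and 4 lower, against 31.8% of all genes tested (17.0% higher and 14.8% lower). The median of the 40 was 0.05, against 0.11 over all genes tested. COL3A1 and COL4A2 were removed by the filter on low spread. The call of COL8A1 did not hold without replicate 2 (−0.77) or without replicate 3 (−0.82), with the arrays of P4 alone in the fit (limma adjusted p = 0.0507), with slide as a fixed block (−0.65, limma adjusted p = 0.321), or with normexp correction and loess (−0.73), which also left COL20A1 under the fold-change threshold.

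The fibrillar chains had 4 of 10 tested genes higher with P4 at any fold change and 0 lower, against 17.0% of all genes tested that were higher. They were COL1A1, COL5A1, COL11A2 and COL27A1. COL5A1 had log2 ratios of 0.65, 0.34, 0.52, 0.88 and 0.52 (mean 0.58 ± 0.20, SD, n = 5, limma adjusted p = 0.000754). COL11A2 had 0.61, 1.11, 0.23, 0.83 and 0.69 (mean 0.70 ± 0.32, SD, n = 5, limma adjusted p = 0.00176). COL27A1 had 0.70, 0.23, 0.12, 0.60 and 0.57 (mean 0.45 ± 0.25, SD, n = 5, limma adjusted p = 0.0152). COL1A1, an alpha chain of type I collagen, had 0.95, 0.26, −0.08, 0.56 and 0.45 (mean 0.43 ± 0.38, SD, n = 5, limma adjusted p = 0.0192), and its signal was above background on 4 of 5 arrays in each channel.

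With HIPP 3 of 10 fibrillar genes were higher and 0 lower (24.8% of all genes tested were higher), and with shCtBP2 0 were higher and 1, COL5A1, was lower (6.87% of all genes tested were lower). The medians of the tested fibrillar genes were 0.03 with shCtBP2, 0.29 with HIPP and 0.38 with P4, beside 0.04, 0.08 and 0.11 over all genes tested. These sets hold only 10 or 11 genes, several of them near background. Of the 6 fibroblast markers, 2 passed higher with each inhibitor and 0 lower, and 0 passed with shCtBP2. They were DPT (0.32) and FAP (0.55), the latter above background on no array, with HIPP, and DPT (0.36) and PDGFRA (0.48) with P4. The summed signal of the 6 markers was 1600 to 2609 in control and 1459 to 4476 in treated cells on the HIPP arrays, and 1595 to 2722 and 1767 to 3312 on the P4 arrays. Their part in the fibrillar values was not tested. Spots in which Feature Extraction put a surrogate value in place of a signal at background in both channels had median log2 ratios of 0.00 to 0.94 on the HIPP arrays and −0.47 to 1.15 on the P4 arrays. Such spots were 5 of 10 for DPT and 3 of 5 for FAP with HIPP, and 4 of 10 for DPT and 8 of 15 for PDGFRA with P4. The 4 fibrillar genes higher with P4 had 0 such spots, whereas COL1A2, COL2A1, COL3A1 and COL11A1, which the medians include where they were tested, had 25 of 55, 4 of 5, 8 of 15 and 3 of 5 with P4.

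Of the basement membrane chains tested, 0 of 8 were higher and 2 lower with shCtBP2, where 6.87% of all genes tested were lower. With HIPP 1 of 6 was higher and 3 lower (23.9% of all genes tested were lower), and with P4 1 of 7 was higher and 1 lower (14.8%), at any fold change. Their medians were −0.29, −0.25 and −0.12, beside 0.04, 0.08 and 0.11 over all genes tested. Over all 8 chains, with those that the filter on low spread removed, the medians were −0.36 with HIPP and −0.16 with P4. The chains in these medians include COL4A3, COL4A4 and COL4A6, which were near background. COL4A5, among the chains lower with shCtBP2 and with HIPP, rests there on a probe with a treated signal at background. These are small sets without a test. COL18A1, the source of endostatin, was lower on all arrays of all treatments. It had −0.53, −0.41, −0.29, −0.52 and −0.30 with shCtBP2 (mean −0.41 ± 0.11, SD, n = 5, limma adjusted p = 0.0369). With slide as a fixed block it was called at −0.75 (limma adjusted p = 0.033), a value set at the mean of 4 slides. Slides 1 and 2 held no shCtBP2 array, and on slides 3 and 4 COL18A1 had means of −0.47 and −0.37. With HIPP it had −1.05, −0.73, −0.72, −0.21 and −0.33 (mean −0.61 ± 0.34, SD, n = 5, limma adjusted p = 0.000813), and its probes had means of −1.04 and −0.18. With P4 it had −0.29, −0.81, −0.51, −0.06 and −0.36 (mean −0.41 ± 0.28, SD, n = 5, limma adjusted p = 0.0204).

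COL4A1 and COL4A2 encode the chains of the main type IV network. COL4A1 had means of −0.45 ± 0.27 with shCtBP2 (limma adjusted p = 0.0597), −0.42 ± 0.37 with HIPP and −0.38 ± 0.35 with P4 (limma adjusted p = 0.0632; SD, n = 5 each), below the control on all 15 arrays. COL4A2 had means of −0.18 ± 0.21 (limma adjusted p = 0.309), −0.29 ± 0.22 and −0.35 ± 0.25 (SD, n = 5 each). The values for COL4A1 with HIPP and for COL4A2 with both inhibitors have no test, because the filter on low spread removed them. The 2 probes of COL4A1 differed with shCtBP2: A_23_P65240 had a mean of −0.65 ± 0.19 and the probe in the glycine repeat, above background in the treated channel on 2 of 5 arrays, −0.24 ± 0.71 (SD, n = 5). With HIPP they had −0.85 ± 0.17, lower on 5 of 5 arrays, and 0.01 ± 0.60 (SD over 5 arrays each). By its brighter probe COL4A1 was called in shCtBP2 cells (limma adjusted p = 0.00147).

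COL4A6, which shares a promoter region with COL4A5, passed the adjusted threshold with HIPP (0.57 ± 0.65, limma adjusted p = 0.0365) and P4 (0.65 ± 0.31, limma adjusted p = 0.0288; SD, n = 5 each). Its control signal was above background on 0 of 5 HIPP arrays and 1 of 5 P4 arrays, so these values rest on signals at background. COL4A3 and COL4A4 passed in no treatment, with SDs from 0.52 to 1.32.

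Of the 42 collagen genes, 19 passed the adjusted threshold in at least 1 treatment (45.2%, against 55.9% of all genes tested in any) and 23 in none. The means of the 23 ran from −0.63 to 1.22, with SDs of 0.11 to 1.32, and 6 of them had a probe above background in both channels on all 15 arrays: COL4A1, COL4A2, COL5A2, COL7A1, COL9A2 and COL17A1. The means of these 6 ran from −0.45 to 0.32. The means of COL5A2 with the inhibitors (−0.08 and −0.03) hold its probe at background (−0.82 under HIPP and −1.07 under P4), whereas A_23_P10391 had 0.46 and 0.38, higher on 5 of 5 arrays each, and A_23_P33196 had 0.13 and 0.60. COL7A1, the collagen of anchoring fibrils, had means of −0.39 ± 0.45 in shCtBP2 cells, 0.12 ± 0.25 under HIPP and 0.32 ± 0.39 under P4 (SD over 5 arrays each). COL17A1, a hemidesmosome component, had −0.27 ± 0.45, −0.38 ± 0.61 and −0.26 ± 0.49 as the mean of 2 probes that differed in sign with shCtBP2 and P4. Its probe above background on all arrays, A_23_P501010, had 0.26, −0.05 and 0.35, whereas A_23_P52323, with a treated signal above background on 1, 0 and 0 arrays, had −0.79, −0.71 and −0.86. COL9A2 had 0.03 ± 0.18, 0.06 ± 0.18 and 0.13 ± 0.11 (SD, n = 5 each).

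**Figure D3:**
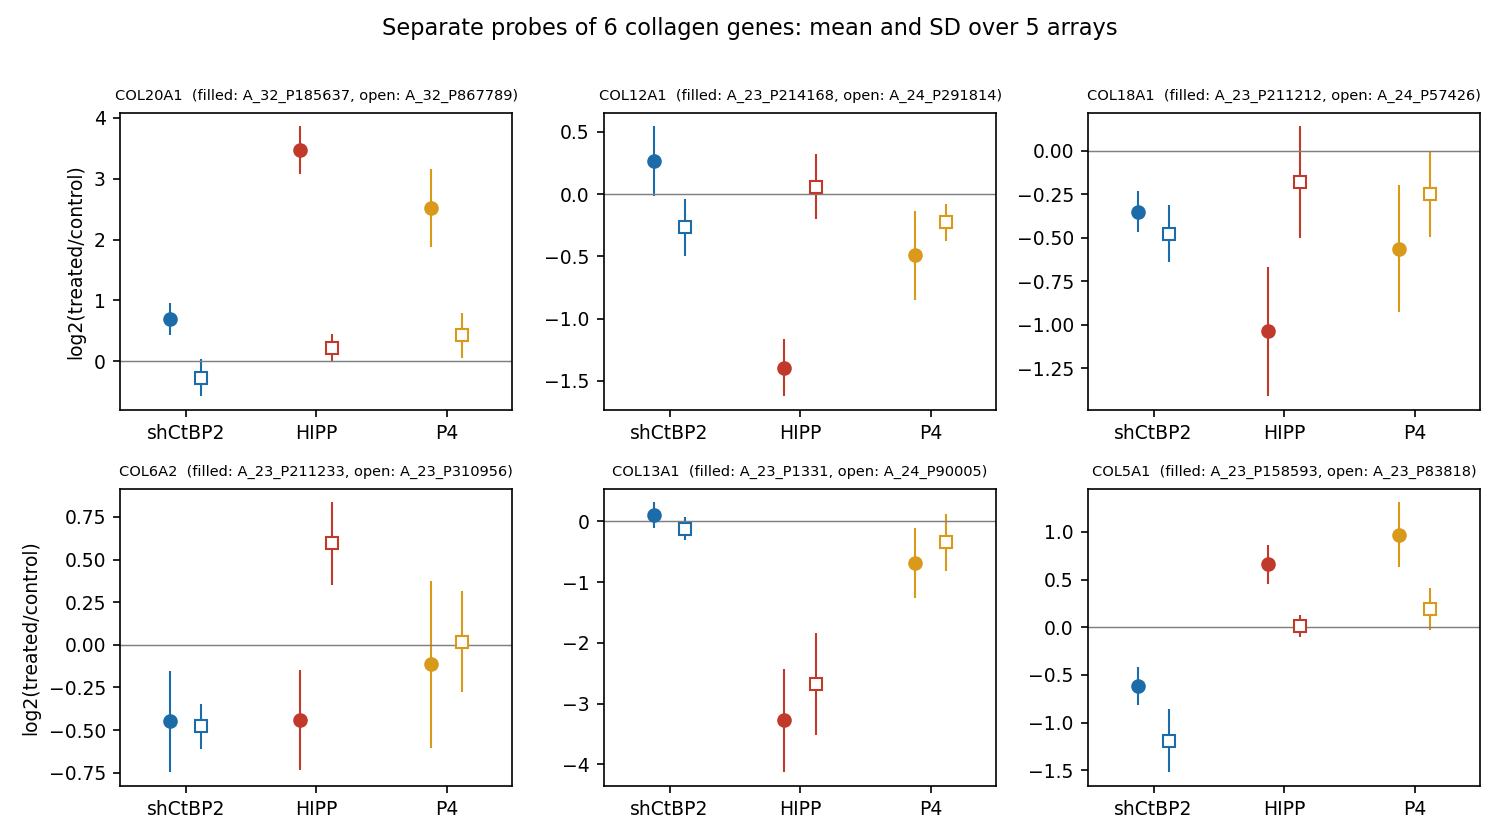
Mean log2 ratio (y axis, with its own scale for each gene) of the separate probes of 6 collagen genes with shCtBP2, HIPP and P4, with the SD over 5 arrays as a bar. Filled circles and open squares are the probes named in each title. The probes of COL13A1 are at most 0.60 apart, whereas those of COL20A1 are 3.25 apart with HIPP.

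How far the probes of a gene differed was followed for genes with more than 1 probe above background in both channels on all 5 arrays of a treatment. With shCtBP2 the 8 such genes had probe means 0.03 to 0.57 apart (median 0.23), and with P4 the 8 genes 0.13 to 0.78 apart (median 0.31). With HIPP the 10 genes had probe means 0.04 to 3.25 apart (median 0.75), and 3 were more than 1 apart: COL20A1, COL12A1 and COL6A2. The probes of COL6A2 gave −0.44 ± 0.29 and 0.59 ± 0.24 with HIPP (SD, n = 5), opposite in sign, but −0.45 and −0.48 with shCtBP2. Of the 42 genes, 22 have 1 probe, so no such comparison exists for COL8A1, COL16A1, COL10A1, COL11A2 or COL9A3.

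The inhibitors were compared with the silencing of CtBP2 as the difference of their log2 ratios, in which a constant dye effect of a gene cancels. A gene was called to differ at a limma adjusted p under 0.05 and a linear fold of at least 1.5. Both differences use the same shCtBP2 arrays. HIPP differed from shCtBP2 in 10 of 35 collagen genes tested (28.6%), against 22.1% of 24964 genes. P4 differed in 6 of 39 (15.4%), against 9.65% of 24997 genes.

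COL5A1 differed with both inhibitors and in sign. With HIPP it had 0.22, 0.35, 0.43, 0.51 and 0.17, all above the control, where shCtBP2 had all arrays below it. The difference was 1.24 (95% interval 0.93 to 1.55, limma adjusted p = 2.03e-05) for HIPP and 1.48 (1.17 to 1.79, limma adjusted p = 2.13e-05) for P4, and the arrays did not overlap. The probes of COL5A1 differed in size with the inhibitors, and with HIPP 1 of them was close to the control: A_23_P158593 had 0.66 ± 0.21 under HIPP and 0.97 ± 0.34 under P4, and A_23_P83818 had 0.01 ± 0.11 and 0.19 ± 0.22 (SD over 5 arrays each), while both were below it with shCtBP2. COL8A1 differed in the other direction, by −1.93 (−2.57 to −1.29, limma adjusted p = 0.000232) for HIPP and −1.36 (−2.0 to −0.72, limma adjusted p = 0.00846) for P4. COL11A2 was higher by 1.21 (0.79 to 1.63, limma adjusted p = 0.000327) and by 0.85 (0.43 to 1.27, limma adjusted p = 0.0112). COL20A1 was higher by 1.63 and by 1.26 as the mean of its discordant probes.

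The other genes were called in 1 of the differences. HIPP differed from shCtBP2 in COL13A1 by −2.97 (−3.70 to −2.24, limma adjusted p = 1.79e-05), COL10A1 by 0.96, COL9A3 by −0.78, COL15A1 by −0.83, COL23A1 by 0.82 and COL14A1 by 0.61. P4 differed in COL27A1 by 0.68 and COL4A5 by 0.79. For COL4A5 the difference rested on the probe with a treated signal at background on all shCtBP2 arrays; by the brightest probe it was −0.047 and not called. With the replicate number as a block, which pairs the P4 and shCtBP2 arrays, the 6 kept their calls. COL21A1 and COL6A5 passed as well (limma adjusted p = 0.0212 and 0.0366), but in each of these groups their signals were above background on no array in 1 channel and on at most 2 in the other, so no fold is given. COL23A1, a transmembrane collagen, was at −1.07 and −1.25 on shCtBP2 replicates 3 and 4 and between −0.16 and 0.23 on the others. In each channel COL23A1 was above background on 2 of the 5 shCtBP2 arrays, so its difference rests in part on signals near background. Without replicate 4 its difference was 0.61, and without replicate 3 it was 0.66, neither of them called, and it was also not called without HIPP replicate 2 (0.81) or 3 (0.75). COL14A1 lost its call without shCtBP2 replicate 1 or HIPP replicate 1, 3 or 4, at 0.52 to 0.56, and COL27A1 without shCtBP2 replicate 1, 4 or 5 or P4 replicate 4 or 5, at 0.64 to 0.67. COL15A1 lost its call without any 1 of shCtBP2 replicates 1 and 2 and HIPP replicates 2 to 5, at −0.85 to −0.71.

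Slide 3 held arrays of both HIPP and shCtBP2. On that slide (2 arrays against 2), the differences of all 10 genes had the same sign as over all arrays, from 0.09 for COL23A1 to −2.41 for COL13A1. With slide as a fixed block, COL5A1 (1.26), COL11A2 (1.59), COL8A1 (−1.53), COL20A1 (1.65) and COL13A1 (−2.41) were still called, and the other 5 were not. Of these, COL10A1 (1.09), COL14A1 (0.79) and COL15A1 (−1.23) had larger differences than without the block, with a limma adjusted p of 0.0638, 0.0586 and 0.0571, whereas COL9A3 (−0.65) and COL23A1 (0.09) had smaller ones. Called in addition were COL6A1 (0.86, against 0.25 without the block), COL27A1 (0.75, against 0.47) and COL6A5, whose shCtBP2 control and HIPP-treated signals were above background on no array. For P4 and shCtBP2 no slide held both, and with slide as a fixed block 0 collagen genes were called (limma); the adjusted p of the 6 genes ran from 0.0669 for COL5A1 (1.44) to 0.509 for COL8A1 (−0.79). COL11A2 (1.32) and COL27A1 (1.31) had larger differences there, and COL20A1 (1.18) and COL4A5 (0.54) smaller ones. Of the collagen genes, 8 of the 39 tested had an unadjusted p under 0.05. After normexp correction and loess, COL13A1, COL20A1 and COL8A1 were called for HIPP, and COL20A1, COL27A1, COL5A1 and COL8A1 for P4.

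**Figure D4:**
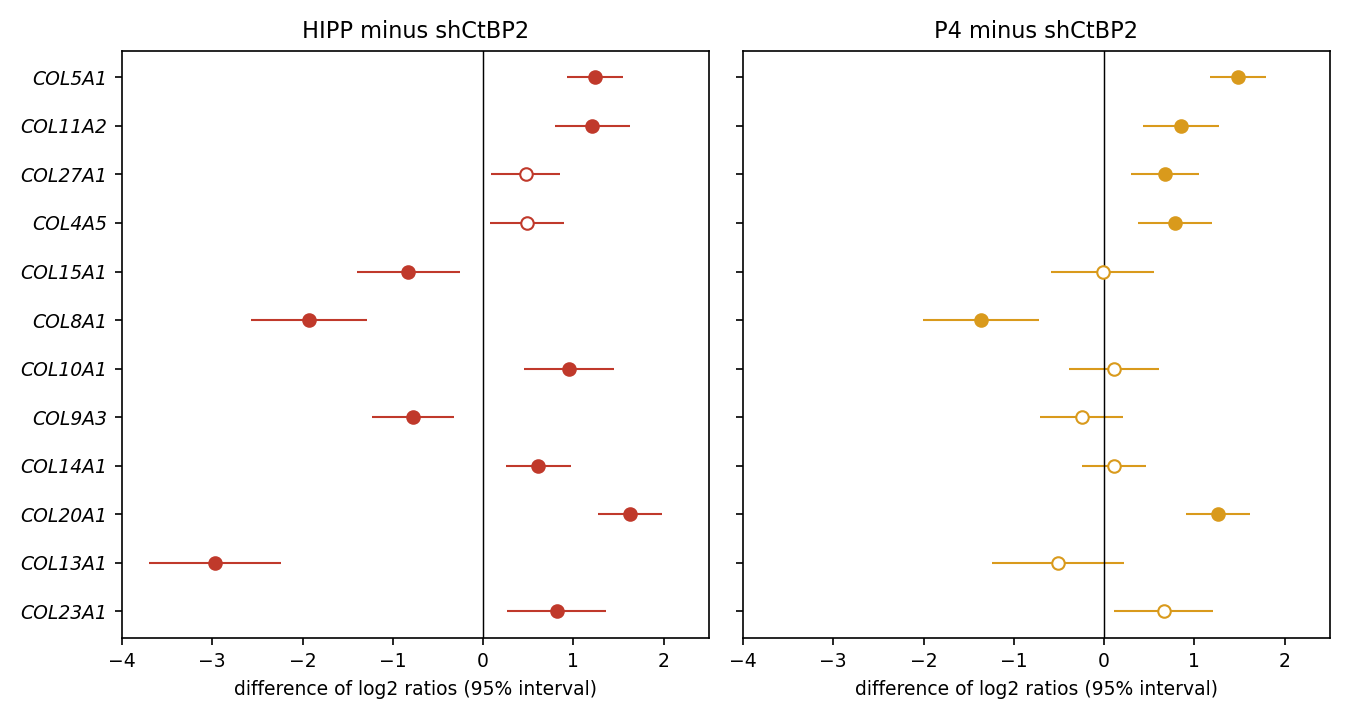
Difference of the log2 ratio between each inhibitor and shCtBP2 (x axis) with its 95% interval, for the 12 collagen genes (y axis) called in at least 1 of the differences. Filled points are called; COL5A1 and COL11A2 lie above 0 for both inhibitors and COL8A1 below it, whereas COL13A1 is called for HIPP alone.

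HIPP and P4, which differ in the hydroxyimino or hydrazone group, are set side by side without a test, because their doses are not matched in the methods. The methods give a higher dose for HIPP than for P4 in growth experiments and do not state the doses used on the arrays. COL13A1 had −2.98 ± 0.84 with HIPP and −0.52 ± 0.52 with P4. COL10A1 had 1.10 ± 0.50 and 0.25 ± 0.32, and COL9A3 −0.88 ± 0.28 and −0.35 ± 0.26. COL8A1 had −1.50 ± 0.55 and −0.93 ± 0.68, COL20A1 1.85 ± 0.20 and 1.47 ± 0.35, COL11A2 1.06 ± 0.27 and 0.70 ± 0.32, and COL6A1 −0.47 ± 0.47 and −0.58 ± 0.30 (SD, n = 5 each). COL5A1 was the higher with P4, at 0.58 ± 0.20 against 0.34 ± 0.14.

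Genes that modify, export, cleave, cross-link or bind collagens were followed as a list of 48 genes. In shCtBP2 cells 4 of 40 tested were called (6.55% of all genes), 1 higher and 3 lower, and at any fold 10 passed (13.4% of all genes), 2 higher and 8 lower. With HIPP 2 of 39 were called (5.13%, against 7.05% of all genes), both higher, and at any fold 23 passed (48.7% of all genes), 11 higher and 12 lower. With P4 5 of 40 were called (12.5%, against 8.46% of all genes), 3 higher and 2 lower, and at any fold 12 passed (31.8% of all genes), 5 higher and 7 lower.

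Of 5 cross-linking enzymes, shCtBP2 and HIPP each had 1 called and P4 had 2, against 6.55, 7.05 and 8.46% of all genes tested. LOX, lysyl oxidase, which oxidizes lysines so that collagen chains can cross-link, had log2 ratios of 2.55, 2.37, 2.53, 1.57 and 2.46 with HIPP. All were high (mean 2.29 ± 0.41, SD, n = 5, limma adjusted p = 7.46e-08), 491% of the control. With P4 LOX had 1.00, 2.19, 1.48, 1.15 and 1.33 (mean 1.43 ± 0.46, SD, n = 5, limma adjusted p = 3.01e-05), and with shCtBP2 it lay between −0.13 and 0.48 (limma adjusted p = 0.659).

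LOXL2, a relative of LOX, lay between −1.39 and −1.12 with HIPP (mean −1.27 ± 0.11, SD, n = 5, limma adjusted p = 3.16e-08), just under the 2.5-fold threshold, and was called with P4 (−1.09 ± 0.17, SD, n = 5, limma adjusted p = 7.54e-07). LOXL3 was called with shCtBP2 (−0.68 ± 0.10, limma adjusted p = 0.00356) and the inhibitor groups were at −0.91 ± 0.40 (HIPP) and −0.72 ± 0.28 (P4; SD, n = 5 each). Of the 5 cross-linking genes, 1 was higher and 3 were lower with each inhibitor at any fold change, where 23.9% of all genes tested were lower with HIPP and 14.8% with P4.

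Among the proline hydroxylases, P3H2, a prolyl 3-hydroxylase of basement membrane collagens, was below the control on all 15 arrays, at −0.72 ± 0.09 with shCtBP2 (limma adjusted p = 6.38e-05), −0.95 ± 0.18 with HIPP (limma adjusted p = 3.59e-07) and −0.93 ± 0.12 with P4 (limma adjusted p = 2.73e-06; SD, n = 5 each). P4HA3, a catalytic subunit of prolyl 4-hydroxylase, was called with P4 (1.08 ± 0.28, SD, n = 5, limma adjusted p = 0.000645), where its control signal was above background on 2 of 5 arrays, and had 1.30 ± 0.45 with HIPP, under the 2.5-fold threshold. DDR2, a receptor for fibrillar collagen, was called with HIPP (1.46 ± 0.42, limma adjusted p = 9.16e-05) and P4 (1.27 ± 0.69, limma adjusted p = 0.000827; SD, n = 5 each), with control signals above background on 4 and 2 of 5 arrays.

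Of the matrix proteins that bind fibrils, FMOD (fibromodulin) fell in shCtBP2 cells. Its log2 ratios were −4.18, −4.36, −5.14, −5.69 and −4.85. The control signal was above background on all 5 arrays and the treated signal on none, so the ratio is a bound: FMOD was at least 2.20-fold lower on signals after normexp correction, loess and quantile normalization of the intensities (limma adjusted p = 4.24e-09 for the processed signals and 0.00167 after normexp and loess). FMOD had 0.09 ± 0.58 on the HIPP arrays and 0.02 ± 0.22 on the P4 arrays (SD, n = 5 each). SPARC, which binds fibrillar and type IV collagen, rose with shCtBP2 (mean 0.63 ± 0.12, higher on all 5 arrays, limma adjusted p = 0.00011) and had −0.32 ± 0.11 on the HIPP arrays and −0.08 ± 0.11 on the P4 arrays (SD, n = 5 each).

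**Figure D5:**
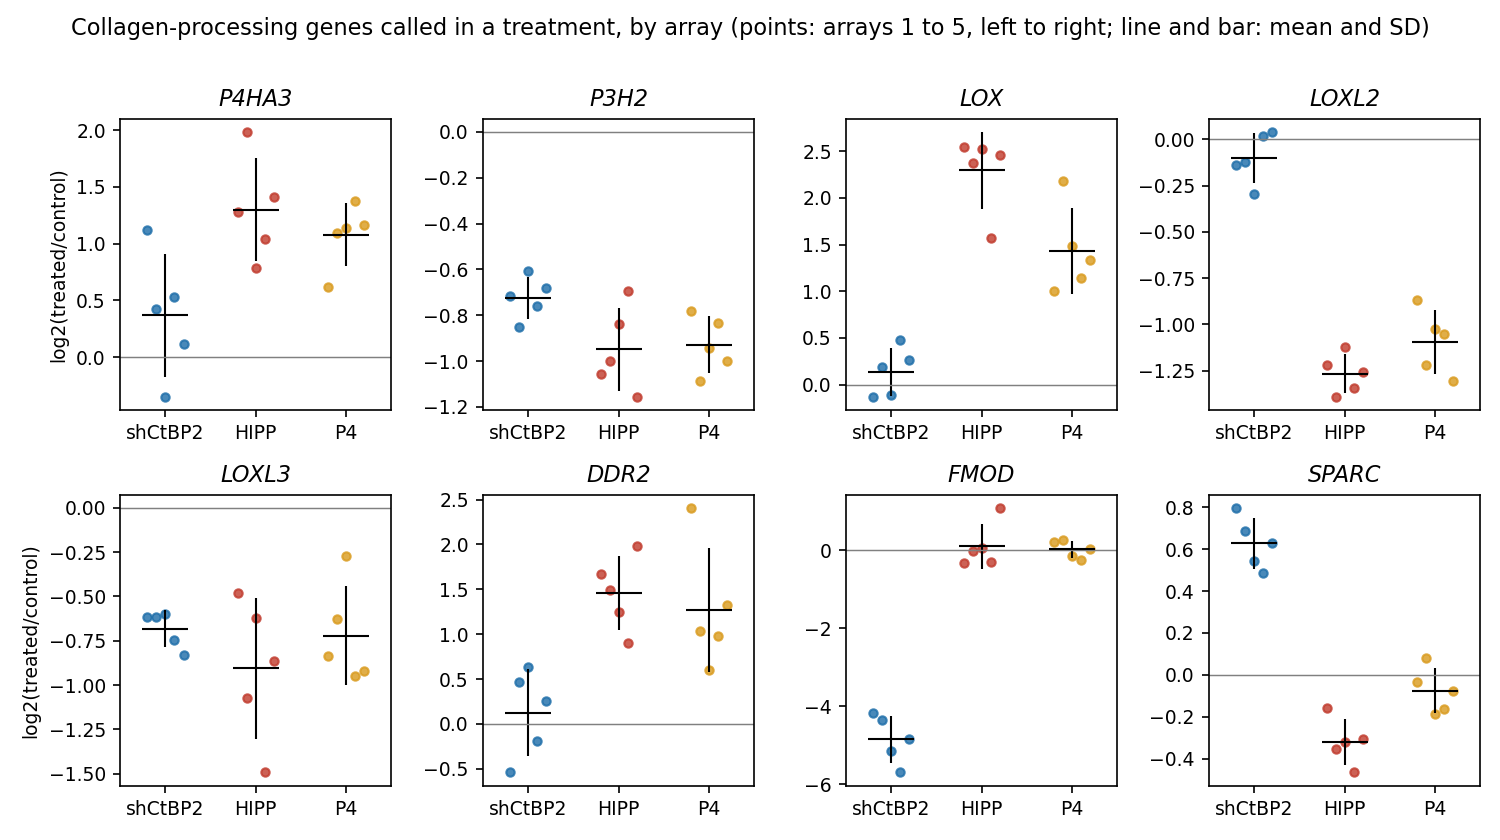
Log2 ratio (y axis, with its own scale for each gene) on each array of the 8 genes of collagen processing and binding called in at least 1 treatment. Points are replicates 1 to 5 from left to right, and the line and bar are the mean and SD; P3H2 and LOXL3 lie below 0 on all 15 arrays, LOX is raised with both inhibitors, and FMOD lies far below 0 with shCtBP2, where its treated signal was at background.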

How the data were processed

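The authors labelled cRNA of treated cells with Cy5 and of untreated cells with Cy3, hybridized both to Agilent 4 × 44K arrays and corrected background and dye with Feature Extraction (version 9.5). The deposited scanner files hold processed signal intensities and a log10 ratio per spot; the deposited value table holds the same log10 ratios, within 0.00499. From the intensities, log2(Cy5/Cy3) was averaged over spots of a probe and probes of a gene, without spots marked as outliers or non-uniform. Genes on at least 3 of 5 arrays, without the 11% of lowest interquartile range, were tested with limma (3.58.1, R 4.3.3), 1 coefficient per treatment over 15 arrays. For FMOD and the COL4A5 probe, with treated signals above background on no shCtBP2 array, the fold is a bound. It comes from normexp-corrected (offset 50), loess- and quantile-normalized signals. Other genes at background in 1 channel, such as COL6A5 and CDH5 with shCtBP2, are given as log2 ratios of the processed signals.

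The rule named members called in a treatment, members of types I, III, IV, V, VI, VIII, XII and XVIII above background in both channels on all arrays of a treatment, called genes of the processing list and CTBP2; other collagen genes given by name were chosen after their values were seen. Members, lists and thresholds were chosen with earlier results of these data known. The steps were tested on simulated data. Alternatives are given in the closing section. The replicate numbers of the labels were checked as pairs by the correlation of deviations from the group means. All 5 pairs of shCtBP2 and P4 arrays were over 0.1 (0.139 to 0.344), whereas 4 of 5 were for shCtBP2 and HIPP and for HIPP and P4. The fit reported has no replicate block.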

Additional observations from a re-analysis of the deposited data

Results flagged for a closer look

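Among the genes named, 87 groups of 5 arrays were tested for 1 array far from the others, of which chance alone would set apart about 1 in 20, and 6 had such an array. With HIPP, replicate 4 stood above the other 4 for COL5A2 (0.46) and COL13A1 (−1.52) and below them for LOX (1.57). HIPP replicate 5 stood above the others for FMOD (1.08), shCtBP2 replicate 5 for COL8A1 (0.58) and P4 replicate 1 for COL12A1 (−0.15). HIPP replicate 4 was thus the array nearest to the control for both COL13A1 and LOX; without it their means with HIPP were −3.34 and 2.48.

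By the test of the difference itself (limma, adjusted p under 0.05 and at least 1.5-fold), HIPP minus shCtBP2 was 1.24 for COL5A1, 1.21 for COL11A2, 0.96 for COL10A1, 0.61 for COL14A1, 1.63 for COL20A1 and 0.82 for COL23A1, and −0.83 for COL15A1, −1.93 for COL8A1, −0.78 for COL9A3 and −2.97 for COL13A1. P4 minus shCtBP2 was 1.48 for COL5A1, 0.85 for COL11A2, 0.68 for COL27A1, 0.79 for COL4A5 (carried by a probe at background in shCtBP2 cells, and −0.047 by the brightest probe) and 1.26 for COL20A1, and −1.36 for COL8A1. Both sets of differences share the shCtBP2 arrays. With slide as a fixed block COL10A1, COL14A1, COL15A1, COL9A3 and COL23A1 (0.09) were no longer called for HIPP, and no gene was for P4. The differences of COL20A1 are means of discordant probes.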

How the results depend on the processing

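Counts of collagen genes called were 4 with shCtBP2, 3 with HIPP, 2 with P4, and 10 and 6 for HIPP and P4 against shCtBP2. Normexp correction with loess changed them to 0, 1, 0, 3 and 4. With P4 12 of 36 tested then had an adjusted p under 0.05 and 16 an unadjusted one (limma), and the share of all genes that passed is not given here. Over all genes the calls fell there from 1807, 1944 and 2333 to 269, 280 and 585; the cause was not tested. With slide as a fixed block the counts were 7 with shCtBP2 (COL5A2, COL18A1 and COL6A5 added) and 1 with P4. It gave 0 for P4 against shCtBP2, where no slide holds both. The share of all genes called in that fit is not given here, so these counts are not read as a result about collagen genes. Values of single treatments with slide fixed, here and above, are set at the mean of 4 slides, some of which held no array of that treatment. A fold change of 1.5 gave 10 with HIPP and 4 of 40 with P4 (17.5% of all genes tested), with COL11A2 and COL4A6, the latter near background, added, and the P4 arrays alone or the methods' Student's test gave 1. Leaving out 1 array gave 4 to 4 with shCtBP2, 3 to 3 with HIPP, 1 to 2 with P4, 7 to 10 for HIPP against shCtBP2 and 5 to 8 for P4 against it. Same-numbered arrays of different treatments had correlations of deviations from −0.0093 to 0.463 over 15 pairs, and 7 of 15 arrays were closest to their own number; with the replicate block the counts were 6, 3, 2, 11 and 8. It lost no call, and those it added (COL4A4 and COL8A2 with shCtBP2, COL8A2 for HIPP against it, COL21A1 and COL6A5 for P4 against it) are of genes at or near background, without a fold.

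For 97 values of single genes, the settings tried gave 1609 values of the same sign and call, 69 that lost the call, 25 that gained it and 38 of the other sign. Of the last, all but COL4A5 for P4 against shCtBP2 (−0.047 by the brightest probe) were of genes not called in that comparison. With shCtBP2, COL6A3 had −0.019 centred on array medians, −0.11 by the brightest probe or without surrogate signals, −0.17 with slide fixed and −0.055 in the value table. The brightest probe gave 0.16 for COL14A1 and −0.27 for COL20A1, slide as a random block 0.0018 for COL14A1 and 0.023 for COL13A1, slide fixed −0.062 for COL10A1, and normexp 0.012 for COL11A2. FMOD with HIPP had −0.10 with slide fixed. With P4, COL5A2 had 0.15 with normexp, 0.60 by the brightest probe and 0.47 with slide fixed, COL15A1 −0.011, −0.12 and −0.14 in these settings, COL6A2 0.018 by the brightest probe and FMOD −0.0041 centred. Leaving out 1 array gave ranges through 0: with shCtBP2 −0.0094 to 0.049 for COL6A3, −0.19 to 0.091 for COL9A3, −0.055 to 0.082 for COL14A1, −0.064 to 0.042 for COL13A1 and −0.0036 to 0.29 for DDR2, with HIPP −0.15 to 0.20 for FMOD, and with P4 −0.15 to 0.13 for COL5A2, −0.020 to 0.26 for COL15A1, −0.15 to 0.096 for COL6A2 and −0.034 to 0.092 for FMOD. Signals at background limit the genes drawn as open points in the plot of all members.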
